A study of Saccharomyces cerevisiae with 12 samples.

Results

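The genes described here are those of meiosis and sporulation, the programme by which budding yeast turns a starved diploid cell into 4 spores. A list of 40 such genes was matched by name to the deposited count tables, which hold 6775 genes. Of the 40, 39 were found. They were 3 regulators (IME1, IME2 and NDT80), 16 early meiotic genes and 20 later genes, most of which shape or wall the spore. The listed gene IME4, which encodes an mRNA methyltransferase of early meiosis, was not analysed here. Membership rests on the known function of each gene.

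Entry into meiosis is controlled by Ime1p, a transcriptional activator whose gene is silenced in growing haploid cells. Ime1p acts with the DNA-binding protein Ume6p at URS1 elements to switch on early genes of chromosome pairing and recombination. Ime2p, a protein kinase, and Ndt80p, a transcription factor that binds middle sporulation elements, then drive the meiotic divisions and spore formation. Cyc8p is a subunit of the Tup1p-Cyc8p corepressor, which is brought to promoters by DNA-binding proteins such as Nrg1p and Rfx1p.

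The cells were those of one haploid strain, the Cyc8 anchor-away strain (Cyc8-AA). It was made in the HHY221 background, of mating type a (Mata). Its CYC8 gene was fused to FRB (CYC8-FRB::HIS3), its ribosomal anchor carried FKBP12 (RPL13A2xFKBP12::loxP), and the alleles tor1-1 and fpr1::loxP-LEU2-loxP were present in every sample. Rapamycin joins the FRB and FKBP12 tags, and the anchor then carries Cyc8p out of the nucleus. All cultures grew in YPD with 2% glucose at 30 °C, and RNA was taken 4 h after the additions. The Flo+ Cyc8-AA experiment compared +Rap samples (rapamycin at 1 µg/ml) with -Rap samples, and +Rap cells clump together (flocculate). The Flo- Cyc8-AA experiment compared +Rap+Man with -Rap+Man samples, all with mannose at 0.25 M, a sugar that blocks flocculation. Each of the 4 groups held 3 samples. The Flo+ libraries were read as paired ends and the Flo- libraries as single ends, at another time, so that mannose, sequencing run and read type cannot be told apart between the experiments. A haploid strain in rich medium does not sporulate, and these cells served as a model of repression in growth and not of sporulation.

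The 12 libraries held 26125728 to 51088194 counts. Depletion by anchor-away moves a protein, and CYC8 mRNA was present in every sample, at 1712 to 2346 normalised counts in -Rap, 2456 to 2916 in +Rap, 1852 to 2189 in -Rap+Man and 1410 to 1815 in +Rap+Man. The mRNA level of CYC8 therefore checks no label. Of the 5 markers of mating type a, STE2, STE6 and BAR1 averaged 1718 to 40849 normalised counts over the 4 groups, and STE3, the alpha counterpart of STE2, averaged 47.0 to 125. The a-factor genes averaged 362 to 492 (MFA1) and 993 to 1590 (MFA2) in the Flo+ groups and 4707 to 37796 in the Flo- groups. Several of these markers moved with rapamycin. STE6 (log2 ratio -1.14, adjusted p = 0.000512) and BAR1 (-1.57, adjusted p = 7.51e-05) fell in Flo+, and MFA1 (1.84, adjusted p = 3.90e-05) and MFA2 (1.57, adjusted p = 1.06e-05) rose in Flo-. Of the other alpha genes, SAG1 averaged 859 to 1215, MF(ALPHA)2 averaged 116 in -Rap and 10.9 in -Rap+Man, and MF(ALPHA)1 rose from 12.4 in -Rap+Man to 175 in +Rap+Man (log2 ratio 3.70 ± 0.32 (SE), adjusted p = 2.56e-05). Their part in the results below was not tested.

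Depletion of Cyc8p upregulated a minority of the meiosis and sporulation genes, and the same genes in both experiments. A ratio here is the log2 difference between the groups with and without rapamycin, taken on normalised counts (raw counts scaled to a common library size) plus 2. A gene was called when limma gave an adjusted p of at most 0.01 and a log2 ratio of at least 1 in size. In the Flo+ ratio, 38 members passed the filter on low counts. Of these, 12 were upregulated and 0 downregulated, against 11% and 2.12% of all 6082 genes tested. In the Flo- ratio, 38 members passed the filter. Of these, 12 were upregulated and 1 was downregulated, against 14.3% and 2.97% of 6332 genes. The upregulated genes were the same 12 in both ratios, which is 100% of each list. Sharing over all genes was not counted, so that no trait particular to the members is read from it. Of the 12, SPS100 passed the filter in Flo+ only through the +Rap samples in which it was high. It therefore had to differ there, and 11 remained in Flo+ without it. The median log2 ratio of the members was 0.51 in Flo+ and 0.52 in Flo-, and that of all genes was -0.02 and -0.08. In bulk RNA, expression in more cells and more RNA per cell cannot be told apart.

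**Figure D1:**
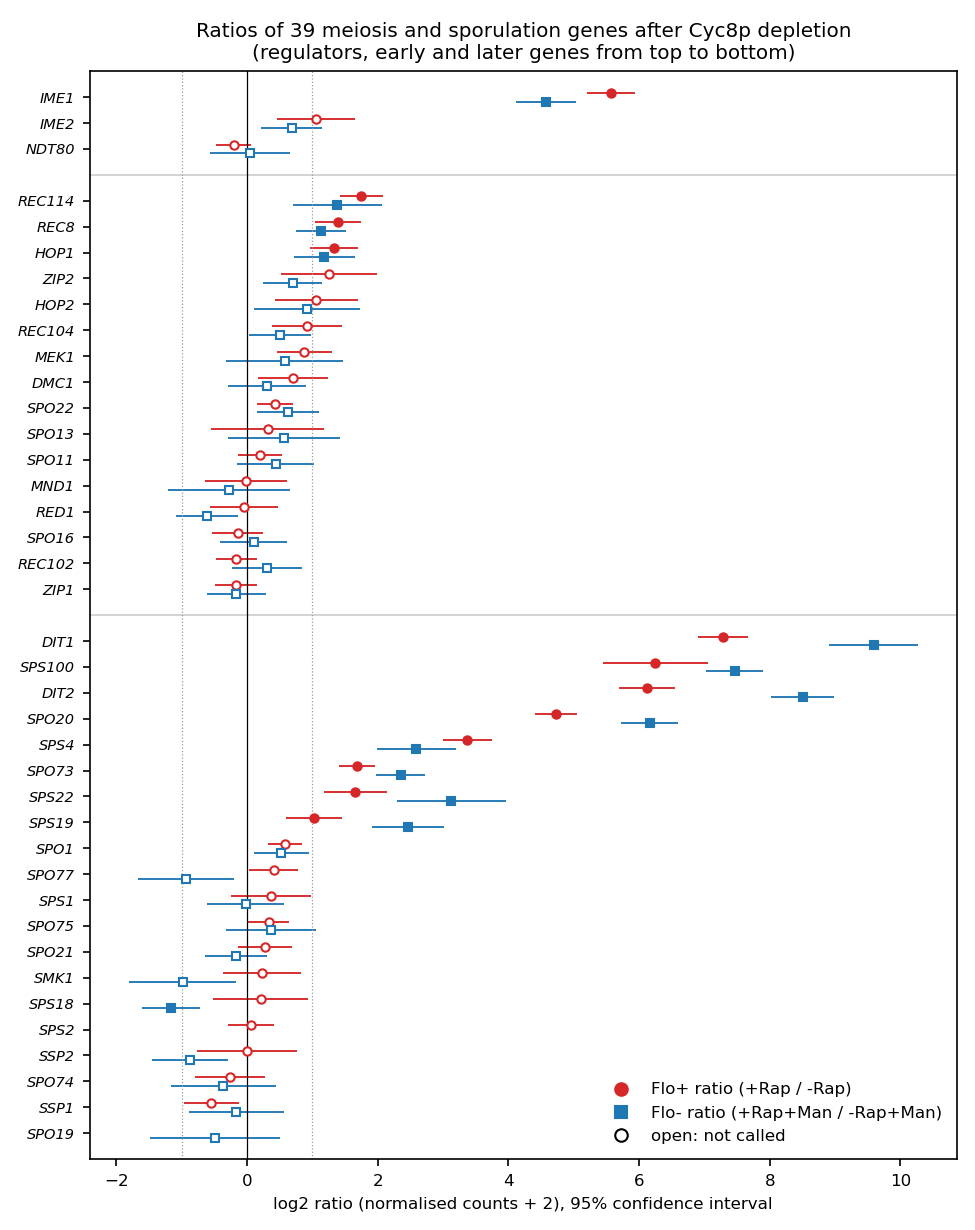
The x axis gives the log2 ratio of normalised counts plus 2 for each of the 39 members (rows), with the Flo+ ratio as red circles, the Flo- ratio as blue squares and bars for the 95% confidence interval of a fit to 3 samples per group. Filled symbols mark called genes, which are 12 upregulated genes in each ratio and SPS18 as the only downregulated one; dotted lines stand at 1 and -1.

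Calls were spread over the 3 classes. Of the regulators, 1 of 3 was upregulated in each ratio, of the early genes 3 of 16 (18.8%), and of the later genes 8 of the 19 tested (42.1%). In Flo+ the later genes counted here include SPS100, which had to differ there, so that their share is raised by the filter. The shares of all genes were 11% in Flo+ and 14.3% in Flo-. The share of the early genes was thus near that of all genes in Flo-. The later genes also held the largest changes, with log2 ratios of up to 7.29 in Flo+ and 9.59 in Flo-. The largest ratio of an early gene was 1.75 in Flo+ and 1.38 in Flo-. Without regard to the size of the change, all 3 depleted samples lay above all 3 controls for 23 of the 38 tested members in Flo+, against 28.5% of all genes, and for 17 of 38 in Flo-, against 28.2%. The 23 include SPS100, for which the filter left no other outcome in Flo+. They lay below for 2 members in Flo+ and 5 in Flo-, against 27.9% and 33.8% of all genes.

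IME1, the master activator of meiosis, rose sharply although neither of the regulators that act after it was called. Normalised counts of IME1 were 150, 132 and 200.1 in -Rap and 7171, 7586 and 8084 in +Rap, a log2 ratio of 5.57 (95% confidence interval 5.20 to 5.94, adjusted p = 1.03e-07) and a 47.4-fold higher mean. In the Flo- experiment they were 89.9, 82.8 and 98.9 in -Rap+Man and 2975, 1935 and 1857 in +Rap+Man, a log2 ratio of 4.58 (4.12 to 5.04, adjusted p = 2.74e-07) and a 24.9-fold higher mean. Every depleted sample stood above every control sample, and the depleted samples of the Flo- experiment all stood below those of Flo+.

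IME2 encodes the kinase that follows Ime1p. Its normalised counts were 484, 421 and 226 in -Rap and 732, 749 and 755 in +Rap, with no overlap, and the log2 ratio of 1.05 (0.45 to 1.65) had an adjusted p of 0.0131 and was not called. With the replicate number as a block, the same ratio was called (adjusted p = 0.00302). It was also called without -Rap replicate 1 (log2 ratio 1.27, adjusted p = 0.00850) and in the fit of all 12 samples (adjusted p = 0.00445). In the Flo- experiment IME2 stood at 124, 95.6 and 135 in -Rap+Man and 224, 168 and 180 in +Rap+Man, and the log2 ratio of 0.68 (0.21 to 1.16, adjusted p = 0.0214) was below the limit. NDT80, which encodes the activator of the middle genes, did not pass the test in either ratio. It stood at 1263, 1123 and 1017 in -Rap and 1002, 917 and 1024 in +Rap, a log2 ratio of -0.21 (-0.48 to 0.07). The Flo- samples held 168, 189 and 227 without and 276, 133 and 213 with rapamycin, a ratio of 0.04 (-0.57 to 0.66), so that the groups overlapped in both experiments. Both intervals for NDT80 lie below a log2 ratio of 1.

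The window from 350 to 100 bases upstream of the IME1 start codon is shown because IME1 had the largest change of the regulators and early genes. It lies at chrX:605751-606001 of the RefSeq genome of strain S288c (assembly R64), on the minus strand, and it held none of the 5 motif cores that were searched. Sequence more than 500 bases upstream was not searched, so that no absence of these cores from the whole IME1 promoter is read from it.
IME1: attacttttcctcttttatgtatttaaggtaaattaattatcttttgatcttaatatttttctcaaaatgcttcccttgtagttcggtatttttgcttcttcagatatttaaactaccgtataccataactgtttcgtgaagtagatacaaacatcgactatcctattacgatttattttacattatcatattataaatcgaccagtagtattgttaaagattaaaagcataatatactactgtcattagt

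Upstream of IME1 the annotation holds IRT1, a noncoding RNA on the same strand that ends 284 bases before the IME1 start codon. Transcription of IRT1 is known to silence IME1 in haploid cells. IRT1 rose with IME1, from 2272 to 2281 normalised counts in -Rap to 9827 to 10200 in +Rap (log2 ratio 2.13 ± 0.09 (SE), adjusted p = 1.25e-06). In the Flo- experiment it rose from 761 to 1411 to a range of 6319 to 7454 (log2 ratio 2.85 ± 0.23, adjusted p = 1.37e-05). IRT1 was named after its values were seen, as the only gene next to IME1 that was called. Of the 20 genes that flank the 12 upregulated members, 5 of 18 tested were upregulated in Flo+, where 11% of all genes were, and 7 of 19 in Flo-, where 14.3% were. Those in Flo- include SUT169, which is no separate neighbour, as it overlaps 946 of the 981 bases of SPS100 on the opposite strand.

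Among the early genes, 3 that act on the axis of meiotic chromosomes and on double-strand breaks were upregulated in both ratios. REC114 encodes a partner of the Spo11p nuclease that cuts DNA to start recombination. Its normalised counts were 379, 408 and 431 in -Rap and 1169, 1622 and 1348 in +Rap (log2 ratio 1.75, 1.42 to 2.08, adjusted p = 5.05e-05). In the Flo- experiment it was close to absent, at 9.91, 16.2 and 14.2 in -Rap+Man and 42.2, 37.7 and 33.5 in +Rap+Man (1.38, 0.71 to 2.06, adjusted p = 0.00446). The groups did not overlap in either experiment. The Flo- call for REC114 was lost when any one of 5 libraries was left out. These were -Rap+Man replicate 1 (log2 ratio 1.20, adjusted p = 0.0108), -Rap+Man replicate 3 (1.42, 0.0129), +Rap+Man replicate 1 (1.30, 0.0207), +Rap+Man replicate 2 (1.38, 0.0172) and +Rap+Man replicate 3 (1.46, 0.0137).

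REC8 encodes the meiotic cohesin subunit that holds sister chromatids together, and HOP1 a protein of the chromosome axis. REC8 stood at 112, 119 and 144 normalised counts in -Rap and 323, 308 and 359 in +Rap, a log2 ratio of 1.39 (1.04 to 1.74, adjusted p = 0.000265). With mannose it went from 93.8, 97.3 and 112 to 236, 216 and 217, a log2 ratio of 1.13 (0.74 to 1.52, adjusted p = 0.000711). No depleted REC8 sample overlapped a control sample. HOP1 rose from 213, 267 and 200.1 to 511, 656 and 548 (log2 ratio 1.33, 0.96 to 1.70, adjusted p = 0.000432). With mannose it rose from 74.0, 64.9 and 66.4 to 193, 149 and 137 (1.19, 0.72 to 1.65, adjusted p = 0.00145). The HOP1 groups did not overlap either, and HOP1 stood lower in both groups with mannose.

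The other 13 early genes did not pass the test, with log2 ratios from -0.16 to 1.25 in Flo+ and from -0.61 to 0.92 in Flo-. The closest were ZIP2, which helps to start synapsis, at 1.25 in Flo+ (adjusted p = 0.0150), and HOP2, which with Mnd1p guides strand invasion, at 1.06 (adjusted p = 0.0162). ZIP2 was called in Flo+ in the fit of all 12 samples (adjusted p = 0.00151), and HOP2 was called in Flo- without +Rap+Man replicate 1 (log2 ratio 1.31, adjusted p = 0.00695). MEK1, a kinase of the recombination checkpoint, passed the p threshold in Flo+ but not the size threshold (0.88, adjusted p = 0.00652). DMC1, the meiotic recombinase, had log2 ratios of 0.70 in Flo+ and 0.31 in Flo-. SPO11, the nuclease itself, had 0.20 and 0.44. RED1, of the chromosome axis, and ZIP1, of the synaptonemal complex, had ratios at or below 0 in both experiments (-0.04 and -0.61 for RED1, -0.16 and -0.16 for ZIP1). REC8, HOP1 and RED1 all belong to the chromosome axis, and RED1 was the one of them that did not pass the test.

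The core of the URS1 element, GGCGGC on either strand, was the sequence feature that the early genes shared. Within 500 bases upstream of the start codon it was present in 11 of the 16 early genes and in 2 of the 20 later genes, against 9.65% of 5868 upstream windows of the same length. The stretch of 30 bases around the core nearest to the start codon is shown for the 3 upregulated early genes and for 4 of the 8 other early genes with a core, to compare the elements. Capitals mark the core or its reverse complement, and sequences run 5′ to 3′ on the strand of the gene (RefSeq, assembly R64).
REC114: cgttacaaggtgGGCGGCtaacttataaaa
HOP1: gtttttaacctgGGCGGCtaaattgtactt
REC8: gaacttgacttcGGCGGCaaaccaatatat
HOP2: gattatgtcctcGGCGGCtaaattttccat
MEK1: cggctaaatttcGGCGGCtatttcattcat
DMC1: gaccggaaaataGCCGCCcaaggataaact
ZIP1: taaaataccctcGGCGGCtaaatttttaga

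The sites lie at chrXIII:536103-536132 (REC114), chrIX:226419-226448 (HOP1), chrXVI:571545-571574 (REC8, minus strand), chrVII:435484-435513 (HOP2), chrXV:996628-996657 (MEK1, minus strand), chrV:548271-548300 (DMC1) and chrIV:1032404-1032433 (ZIP1). A core was thus found in upregulated and in other early genes alike. It was present in 4 of the 12 upregulated members (33.3%) and in 10 of the other 27 (37.0%). HOP1 shares its upstream region of 647 bases with SPO22, which lies divergently and whose product, like Zip2p, acts in synapsis. SPO22 did not pass the test, with log2 ratios of 0.43 (0.15 to 0.71) in Flo+ and 0.63 (0.15 to 1.11) in Flo-.

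DIT1 and DIT2, the enzymes that make the dityrosine of the outer spore wall, had the largest changes of all members in Flo-, and DIT1 also in Flo+. DIT1, which acts first, stood at 280.5, 361 and 345 normalised counts in -Rap and at 42022, 61013 and 52706 in +Rap, a log2 ratio of 7.29 (6.90 to 7.67, adjusted p = 3.55e-08). With mannose it went from 133, 290.2 and 324 to 196100, 163850 and 182880, a log2 ratio of 9.59 (8.92 to 10.26, adjusted p = 2.78e-08). The means of DIT1 differed 158-fold in Flo+ and 726-fold in Flo-, and each group lay far from the other.

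DIT2, a cytochrome P450, stood at 66.2, 45.6 and 41.5 in -Rap and 3252, 3889 and 3754 in +Rap (log2 ratio 6.12, 5.70 to 6.54, adjusted p = 1.31e-07). With mannose it went from 29.7, 53.8 and 42.7 to 17665, 13812 and 15520 (8.50, 8.03 to 8.98, adjusted p = 6.89e-09). The 2 genes lie back to back on chromosome IV with 898 bases between their start codons. Per kb of coding sequence, the mean level of DIT1 was 5.87 times that of DIT2 in -Rap, 13.0 times in +Rap, 5.41 times in -Rap+Man and 10.5 times in +Rap+Man.

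The windows from 350 to 100 bases upstream of DIT1 (chrIV:1274252-1274502, plus strand) and of DIT2 (chrIV:1273803-1274053, minus strand) are shown because the pair gave the largest ratios in Flo-. Capitals mark the Nrg1p core CCCCT, and in DIT1 also the middle sporulation element core CACAAAT, which directly follows the first of its Nrg1p cores.
DIT1: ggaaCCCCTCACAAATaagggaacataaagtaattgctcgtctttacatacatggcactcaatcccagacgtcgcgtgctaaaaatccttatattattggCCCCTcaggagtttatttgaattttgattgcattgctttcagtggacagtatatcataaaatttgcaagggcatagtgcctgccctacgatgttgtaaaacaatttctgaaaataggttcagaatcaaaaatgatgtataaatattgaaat
DIT2: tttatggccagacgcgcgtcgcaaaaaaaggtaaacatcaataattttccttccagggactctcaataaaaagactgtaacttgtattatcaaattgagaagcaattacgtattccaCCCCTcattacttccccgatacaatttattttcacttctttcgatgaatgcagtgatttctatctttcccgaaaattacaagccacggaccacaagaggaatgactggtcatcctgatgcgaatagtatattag

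SPS100, which encodes a protein of the maturing spore wall, followed DIT1 in Flo+ and the DIT pair in Flo-. It stood at 2.07, 3.51 and 8.30 normalised counts in -Rap, which were 2, 3 and 8 reads before scaling, and at 402, 543 and 458 in +Rap (log2 ratio 6.25, 5.45 to 7.05, adjusted p = 5.57e-06). All 3 controls lay under the level asked for by the filter, and SPS100 could not be tested once a +Rap sample was left out, so that this p is no independent sign of a change. With so few reads in the controls the size of the Flo+ ratio depended on the number added before the logarithm, and it was 6.69 with 0.5 and 5.26 with 8. In the Flo- experiment it went from 268, 326 and 331 to 61161, 40574 and 65634 (7.47, 7.03 to 7.90, adjusted p = 8.46e-09). No group overlapped another, and the -Rap+Man controls stood close to the depleted +Rap samples.

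SPS100 shares 946 of its 981 bases (96.4%) with SUT169, a noncoding transcript annotated on the opposite strand. SUT169 had 1 to 4 reads per library in -Rap and 1 to 7 in +Rap. In the Flo- experiment its normalised counts went from 52.9, 45.2 and 31.2 to 1220.0, 655 and 978 (log2 ratio 4.39 ± 0.28 (SE), adjusted p = 2.98e-06). ZIP2 is the only other member that overlaps an annotated gene, RME3, which covers 1905 of its 2115 bases (90.1%) on the opposite strand. RME3 had 0 reads in all 6 Flo+ libraries and 241 to 429 in those of the Flo- experiment. The libraries were prepared with strand information, but how reads in overlaps were assigned is not given in the sources used here. Over all tested genes with at least 50% of their length overlapped on the opposite strand, 55.8% of 43 were called higher and 27.9% lower in -Rap+Man than in -Rap, against 8.77% and 8.91% of 5745 genes without an overlap. Levels of SPS100 and ZIP2 set across the experiments are therefore uncertain, and the part of read assignment in them was not tested. Only annotated overlaps were examined, so that read assignment was not tested for the other members either. The window upstream of SPS100 (chrVIII:379299-379549, minus strand) is shown with its 2 Nrg1p cores in capitals.
SPS100: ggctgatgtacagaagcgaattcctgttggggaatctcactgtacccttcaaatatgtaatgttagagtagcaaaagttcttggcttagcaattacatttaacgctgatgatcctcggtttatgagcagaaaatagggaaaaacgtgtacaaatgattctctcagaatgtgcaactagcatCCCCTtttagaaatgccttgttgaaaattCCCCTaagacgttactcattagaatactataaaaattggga

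**Figure D2:**
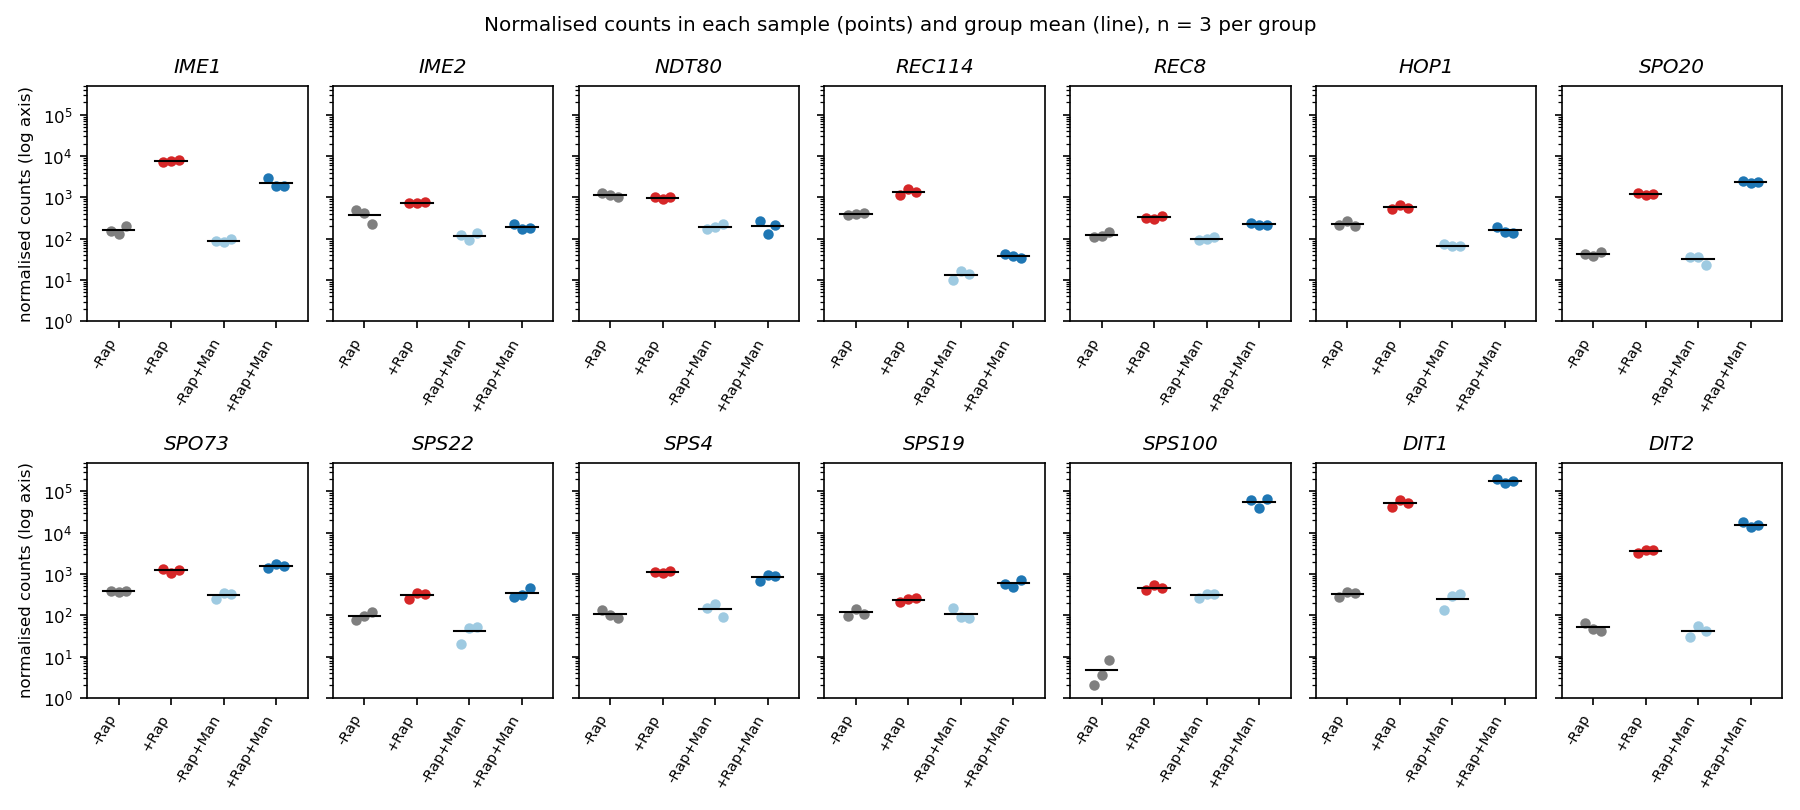
The y axis (log scale) gives normalised counts in each of 3 samples per group (points) and the group mean (line) for the 12 upregulated members and for IME2 and NDT80. DIT1 stands at 163850 or above in all +Rap+Man samples and SPS100 below 10 in all -Rap samples, whereas the NDT80 groups with and without rapamycin overlap.

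SPO20 and SPO73 act on the prospore membrane, which grows around each nucleus to form the spore. SPO20, a SNARE protein of membrane fusion, stood at 43.5, 38.6 and 48.7 normalised counts in -Rap and 1264, 1115 and 1233 in +Rap (log2 ratio 4.73, 4.40 to 5.05, adjusted p = 1.27e-07). With mannose it rose from 36.3, 35.9 and 23.7 to 2483, 2256 and 2431 (6.16, 5.72 to 6.60, adjusted p = 2.79e-08). Control levels of SPO20 were thus low throughout, and the depleted samples of the Flo- experiment stood above those of Flo+. SPO73, needed for the extension of the membrane, rose from a range of 364 to 394 in -Rap to 1084 to 1325 in +Rap (log2 ratio 1.68, 1.41 to 1.96, adjusted p = 2.17e-05). With mannose it rose from 246 to 341 to a range of 1420.3 to 1734 (2.35, 1.97 to 2.73, adjusted p = 6.45e-06).

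SPS4, a gene induced in sporulation, rose from a range of 87.1 to 130.4 normalised counts in -Rap to 1063 to 1165 in +Rap (log2 ratio 3.37, 3.00 to 3.75, adjusted p = 2.14e-06). With mannose it rose from 91.4 to 185 to a range of 682 to 948 (2.59, 1.99 to 3.19, adjusted p = 7.40e-05). SPS22 encodes a cell-surface protein that shapes the glucan layer of the spore wall. It rose from 76.6 to 117 in -Rap to 248 to 350.3 in +Rap (log2 ratio 1.66, 1.18 to 2.14, adjusted p = 0.000554), and with mannose from 19.8 to 52.2 to a range of 278 to 456 (3.13, 2.30 to 3.96, adjusted p = 0.000173). None of these groups overlapped.

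SPS19, which encodes a peroxisomal reductase that breaks down unsaturated fatty acids, was the smallest of the 12 in Flo+. It rose from 98.3, 144 and 108 in -Rap to 205, 250.4 and 259 in +Rap (log2 ratio 1.03, 0.59 to 1.46, adjusted p = 0.00367), and with mannose from 148, 92.2 and 86.7 to 583, 494 and 729 (2.47, 1.91 to 3.02, adjusted p = 5.90e-05). The groups did not overlap, but the Flo+ call rested on a ratio just over the limit. It was lost without -Rap replicate 1 (0.92, adjusted p = 0.0124), -Rap replicate 3 (0.98), +Rap replicate 2 (0.99, adjusted p = 0.0235) or +Rap replicate 3 (0.97, adjusted p = 0.0232), and when 8 counts were added in place of 2 (0.99).

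SPS18 lies divergently from SPS19 with 300 bases between the genes, and it was the only downregulated member. It encodes a protein with a zinc finger. Normalised counts were 196, 265 and 201 in -Rap+Man and 103, 86.6 and 102 in +Rap+Man, a log2 ratio of -1.16 (-1.60 to -0.71, adjusted p = 0.00127). In the Flo+ experiment they were 114, 99.4 and 48.7 without and 113, 83.5 and 91.6 with rapamycin, a ratio of 0.21 (-0.52 to 0.94). SPS18 thus stood at about the same level in the 3 groups other than -Rap+Man, in which it was higher, while its neighbour SPS19 rose in both experiments.

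The other later genes did not pass the test. SPO1, a phospholipase-like protein of the meiotic spindle pole body, had log2 ratios of 0.58 in Flo+ (adjusted p = 0.00515) and 0.53 in Flo-, both under the size limit. Of the kinases of spore wall formation, SMK1 had 0.23 and -0.99 and SPS1 had 0.37 and -0.02. SSP1, of the leading edge of the prospore membrane, had -0.55 and -0.16. SPO21 and SPO74, of the outer plaque of the meiotic spindle pole body, had 0.28 and -0.17, and -0.26 and -0.36. SPO75 had 0.33 and 0.37, SPO77 had 0.41 and -0.93, and SSP2, which activates Smk1p, had 0.00 and -0.87. SPO19 did not pass the filter in Flo+, where it held 6.07 to 15.2 normalised counts, and had -0.49 in Flo-. SPS2, a relative of SPS22, did not pass it in Flo-, where no sample exceeded 5.41, and had 0.06 in Flo+. SPS2 lies 262 bases from SPS1 in the same direction.

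Middle sporulation elements marked the later genes as a class. A core of CACAAAA or CACAAAT on either strand was present within 500 bases upstream in 16 of the 20 later genes and in 0 of the 16 early genes, against 20.2% of all 5868 windows. The 30 bases around the core nearest to the start codon are shown for the 6 upregulated later genes that held one, with the core or its reverse complement in capitals.
SPO20: agccgcactctaCACAAAAttacttggcaa
SPO73: gtgcattatcttTTTTGTGaaagtttatct
SPS22: gaagctatatccTTTTGTGacatacaatag
SPS4: attgacgcgcgcCACAAAAacgtatcattg
SPS19: ctggcctaacgtCACAAAAtcactttcaaa
DIT1: ccaggaacccctCACAAATaagggaacata

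These sites lie at chrXIII:307139-307168 (SPO20), chrV:243009-243038 (SPO73), chrIII:42051-42080 (SPS22), chrXV:903047-903076 (SPS4, minus strand), chrXIV:259367-259396 (SPS19) and chrIV:1274249-1274278 (DIT1). The core was found in 6 of the 12 upregulated members (50%) and in 11 of the other 27 (40.7%). The Nrg1p core CCCCT, a short sequence found in 34.5% of all windows, was present in 6 of the 12 upregulated members (50%) and in 7 of the other 27 (25.9%). The Rfx1p core GTTGCC was present in 1 of the 12 and 2 of the 27, against 13.9% of all windows. The searched cores of 5 to 7 letters are short, and a match describes the sequence only.

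Whether the ratios differed between the experiments was tested as a difference of ratios, Flo- minus Flo+, in a fit of all 12 samples. Of the 39 members, 3 had a higher ratio in Flo- and 0 a lower one, against 2.61% and 1.15% of 6409 genes. All 3 were later genes. The difference was 1.43 for SPO20 (0.92 to 1.95, adjusted p = 0.00237), 2.30 for DIT1 (1.48 to 3.12, adjusted p = 0.00218) and 2.38 for DIT2 (1.73 to 3.03, adjusted p = 0.000344). Their control levels were close in both experiments, with log2 differences between -Rap+Man and -Rap of -0.44, -0.49 and -0.28. Mean levels with rapamycin were 1.98 times as high with mannose as without for SPO20, 3.49 times for DIT1 and 4.31 times for DIT2. Without +Rap replicate 2 the SPO20 difference was 1.38 with an adjusted p of 0.0101 and was not called.

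When replicate pairs entered the fit of all 12 samples as a block, 5 members had a higher ratio in Flo- and 1 a lower one. The added calls were SPS19 (1.44, adjusted p = 0.0128 without and 0.00869 with the block), SPS22 (1.47, 0.0496 and 0.00923) and, as the lower one, SPO77 (-1.34, 0.0251 and 0.00535). SPS19 was also called without -Rap+Man replicate 1 (1.68, adjusted p = 0.00343). The estimate for SPS100 was 1.22 (0.34 to 2.10, adjusted p = 0.0629), and with 8 counts added it was 2.18 (adjusted p = 0.000472). IME1 leaned the other way, at -0.99 (-1.57 to -0.41, adjusted p = 0.0290), and without +Rap+Man replicate 1 it was called lower in Flo- (-1.21, adjusted p = 0.00859). Of the 8 upregulated later genes, 7 had the larger estimate in Flo- and SPS4 in Flo+. The 7 include SPS100, whose Flo+ ratio rested on 2, 3 and 8 reads in -Rap. Of the 4 upregulated regulator and early genes, all 4 had the larger estimate in Flo+, and none of these 4 differences was called. Such estimates were not counted over all upregulated genes. Among all 6409 genes, calls in the difference of ratios were more often higher in Flo- (167) than lower (74).

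Levels without rapamycin differed between the experiments for many members. In -Rap+Man against -Rap, called here at an adjusted p of at most 0.05 and a log2 value of 1 or more in size, 5 members were higher and 17 lower, against 11.7% and 11.3% of 6409 genes. The largest differences were those of SPS2 and SPS100. SPS2 stood at 165, 186 and 152 normalised counts in -Rap and at 1.32, 2.56 and 1.35 in -Rap+Man, which were 2, 3 and 2 reads. All -Rap+Man samples of SPS2 and MEK1 and all -Rap samples of SPS100 lay under the level asked for by the filter. These members passed it through other groups in which they were higher, and SPS2 only through the Flo+ groups. Their calls here are therefore no independent sign of a difference. REC114 was 30.2 times as high in -Rap as in -Rap+Man on average, SPO75 22.5 times, SPO74 8.93 times, MEK1 6.62 times, SPO77 6.12 times and NDT80 5.83 times. The higher ones in -Rap+Man were SPS100, ZIP2, SPS18, SPO19 and REC104. The call for SPO19 (log2 difference 1.12, adjusted p = 0.0261) was lost with the replicate block (adjusted p = 0.115), without -Rap replicate 1 (1.14, 0.0515) or 3 (1.05, 0.0716) and without -Rap+Man replicate 1 (0.78, 0.107) or 2 (1.09, 0.0645). Without -Rap+Man replicate 1, the calls for REC104 (0.92) and, on the lower side, for SPS22 (-0.87) were lost as well. Mannose, run and read type cannot be told apart in these differences, and the part of read assignment in them was not tested.

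**Figure D3:**
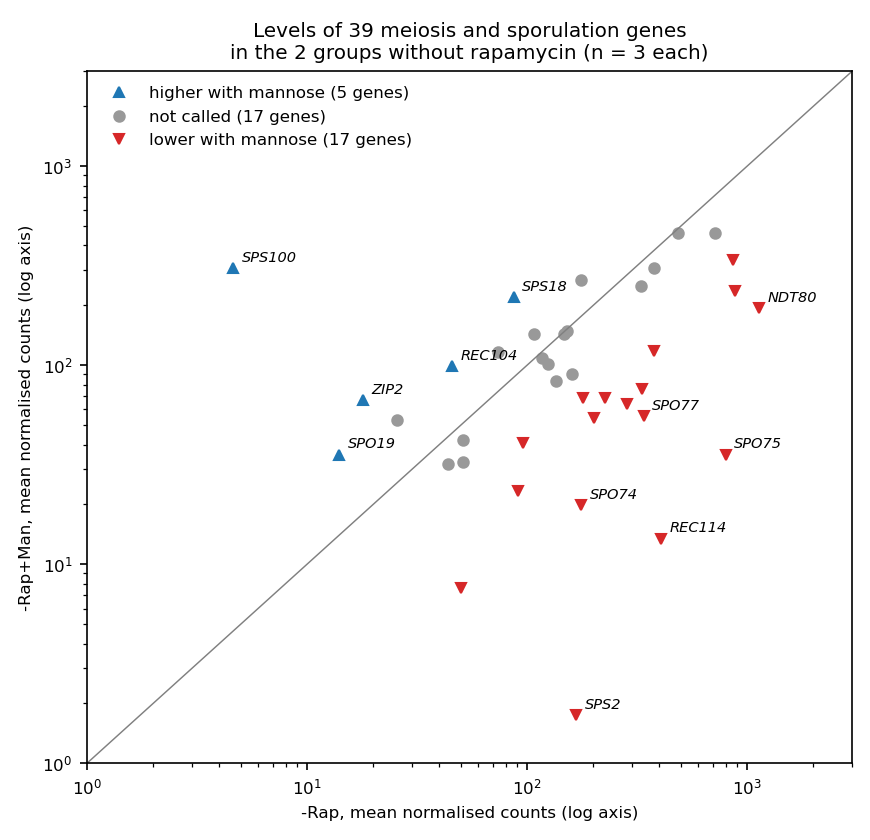
Each point is 1 of the 39 members, with its mean normalised counts over 3 samples in -Rap on the x axis and in -Rap+Man on the y axis, both on log scales, and the line marks equal levels. Of the members, 17 lie below the line as called lower with mannose and 5 above it as called higher; SPS2 lies at 1.75 on the y axis and SPS100 at 4.62 on the x axis.

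Without rapamycin nearly all members were among the lower genes of the cell. On the scale of normalised counts per kb of coding sequence, 37 of the 39 stood below percentile 25 of 5868 genes in -Rap and 38 in -Rap+Man. In each of the depleted groups 31 still did. The exceptions in -Rap were SPO73 (878 per kb, percentile 40.6) and NDT80 (602, percentile 29.6), and in -Rap+Man it was SPO73 (712, percentile 34.7). In +Rap the order of levels per kb was led by DIT1 (32225, percentile 96.0), IME1 (7030.1, percentile 86.1), SPO73 (2839, percentile 72.6) and DIT2 (2471, percentile 69.2). In +Rap+Man it was led by DIT1 (112320, percentile 98.5), SPS100 (56871, percentile 96.7), DIT2 (10657, percentile 88.1) and SPO73 (3624, percentile 74.3), followed by IME1 (2083, percentile 63.1) and SPO20 (2002, percentile 62.2). Neighbours in this order did not overlap between their samples, with 1 exception in each group. SPO73 (2509 to 3067 per kb) and DIT2 (2212 to 2646 per kb) overlapped in +Rap, and IME1 (1715 to 2747 per kb) and SPO20 (1889 to 2079 per kb) in +Rap+Man. REC114, REC8 and HOP1, although upregulated, reached percentiles of only 45.8, 6.07 and 12.3 in +Rap and of 2.49, 5.49 and 4.74 in +Rap+Man.

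Other genes of the pathway were listed by function as a comparison. Of 24 genes of upstream control, 6 were upregulated in Flo+ and 7 in Flo-, and 0 and 1 were downregulated (25% and 29.2% upregulated, against 11% and 14.3% of all genes). Of 16 other early meiotic genes, 1 of 16 tested was upregulated in Flo+ (6.25%) and 2 of 14 in Flo- (14.3%), shares no higher than those of all genes. Of 31 other later genes, 5 of 31 tested were upregulated in Flo+ (16.1%) and 7 of 30 in Flo- (23.3%), and 0 and 2 were downregulated. The medians of the 3 lists were 0.29, 0.45 and 0.39 in Flo+ and 0.17, 0.05 and 0.12 in Flo-.

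In Flo+ the largest increases were those of LDS2, of lipid droplets in the spore wall (log2 ratio 3.01, adjusted p = 2.45e-05), NRG1, the glucose-dependent repressor (2.66, adjusted p = 3.75e-05), CRR1, a glycosidase of the spore wall (1.90, adjusted p = 1.45e-05), PHD1, a regulator of filamentous growth (1.89, adjusted p = 0.000133), and NDJ1, which tethers telomeres in meiosis (1.88, adjusted p = 0.000827). In Flo- they were those of NRG1 (3.20, adjusted p = 0.000106), XBP1, a stress-induced repressor (3.04, adjusted p = 6.17e-06), RIM4, an RNA-binding protein of meiosis (2.66, adjusted p = 0.000113), CRR1 (2.46, adjusted p = 1.73e-05) and SPR3, a sporulation septin (2.36, adjusted p = 0.00104). The downregulated genes in Flo- were CLB1, a cyclin that also acts in growing cells (-1.51, adjusted p = 7.73e-05), MUM3, of the outer spore wall (-1.28, adjusted p = 0.000856), and SIN3, a subunit of the Rpd3p histone deacetylase complex that works with Ume6p (-1.05, adjusted p = 0.000188). In the difference of ratios, MUM3 (-1.86, adjusted p = 0.000381) and REC107, a partner of Rec114p (-1.18, adjusted p = 0.00499), were lower in Flo-. REC107 was named after its values were seen. UME6 itself had log2 ratios of -0.43 in Flo+ and -0.84 in Flo-, and RME1, the haploid repressor of IME1, had 0.33 and 0.26. UME6 and RME1 were also named after their values were seen, and neither passed the size limit.

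**Figure D4:**
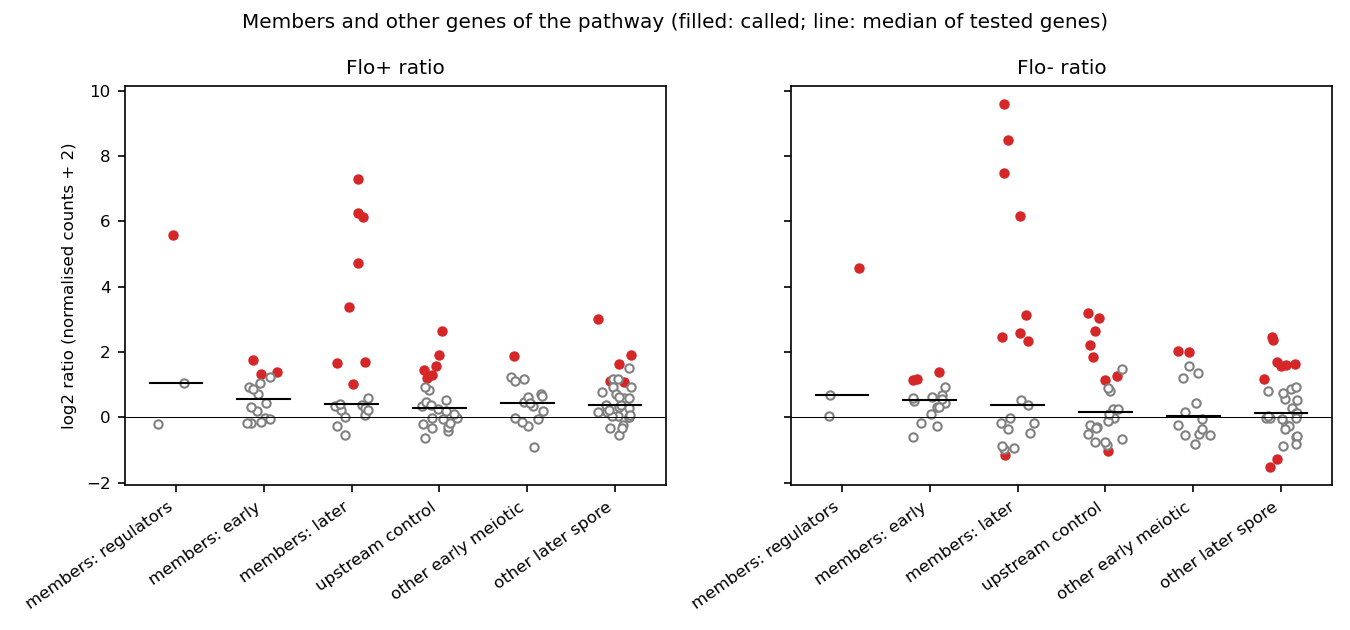
The y axis gives log2 ratios (normalised counts plus 2) in Flo+ (left) and Flo- (right) for the regulators, early and later members and for the 3 lists of other genes of the pathway; each point is a tested gene, filled where called, and the line is the median of the list. The later members hold the highest points, up to 7.29 in Flo+ and 9.59 in Flo-, while every median lies between -0.1 and 1.1.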

How the data were processed

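RNA of 12 samples in 4 groups of 3 was depleted of rRNA and sequenced with strand information. The authors trimmed reads with fastp 0.20.0, aligned them with STAR 2.7.3 to the S288c genome from ENSEMBL (the release and the counting tool are not given in the sources used here) and normalised with DESeq2. The deposited tables hold raw counts per gene and those counts after division by size factors. They use separators between digits, so that their values were recorded under a unit of another kind, and limma was applied in place of a count model. The second deposited table also holds the authors' own fold changes, differences and p-values, which were not used. Values here came from the raw counts, of which 0 cells were other than whole numbers.

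Genes were kept that reached the level of 10 counts in a library of median size in 3 or more samples and summed to 15 counts or more. Samples were scaled by TMM (30% of log ratios and 5% of mean levels trimmed) to 37157328 counts, 2 was added, and limma 3.58.1 in R 4.3.3 (lmFit, eBayes with trend, two-sided) was run over all genes with Benjamini-Hochberg adjustment. Each ratio was fitted on the 6 samples of its experiment, and the difference of ratios and the control groups were contrasts of all 12. Coordinates are those of RefSeq assembly R64, in which 6216 of the 6775 genes were found by systematic name. Motif cores were searched over 500 bases upstream. No member had a copy of at least 90% identity over 50% of its length.

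Same-numbered samples were taken as pairs, since each culture was divided in 2. The deviations of a pair from their group means had correlations of 0.192, 0.117 and 0.259 in Flo+ and 0.473, 0.196 and 0.236 in Flo-. The main fits did not use this pairing, which entered only as the replicate block among the alternatives. Replicates differed by more than counting error (chi-square per gene of 33 to 341). Totals of 26125728 to 51088194 counts per sample give counting error only. On simulated counts 200 of 200 genes changed 4-fold were recovered in each comparison. The changed genes were drawn from well-counted genes only, with the same spread set for every gene. Recovery of members with few reads was therefore not tested. Alternatives were other scaling, filters, added counts, precision weights, the replicate block, another p threshold, genes without overlap and leaving out each sample. The members and lists were chosen with earlier results of these data known. Values per sample are given for the regulators, for members called in the difference of ratios and for called early and later members with the largest changes; of the other lists, the 5 largest increases and decreases in each ratio that held in all 3 pairs are named. The decimal point of the mannose concentration is missing in the labels, and 0.25 M was read from the study's methods.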

Additional observations from a re-analysis of the deposited data

Results flagged for a closer look

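The ratio of 3 members differed between the Flo+ and Flo- experiments by the test of the difference itself (limma, all 12 samples). The difference of ratios, Flo- minus Flo+ on the log2 scale, was 1.43 for SPO20, 2.30 for DIT1 and 2.38 for DIT2. Depleted samples stood above controls in all 3 pairs of each experiment for all 3 genes. Without +Rap replicate 2 the SPO20 difference was 1.38 (adjusted p = 0.0101) and was not called, whereas DIT1 and DIT2 were called with any 1 sample left out. The 2 experiments also differed in mannose, run and read type, which cannot be told apart.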

How the results depend on the processing

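No called member changed sign under any alternative, and the counts of members called in the Flo+ and Flo- ratios stayed within 1.5 times of those given. Members with a higher ratio in Flo- numbered 5 with 8 counts added, 5 with the replicate block and 5 at an adjusted p of 0.05, in place of 3, and those with a lower ratio numbered 1 with the block, 2 at 0.05 and 1 without +Rap+Man replicate 1, in place of 0. Members higher in -Rap+Man than in -Rap numbered 3 with at least 10 counts in every sample, 3 with 8 counts added and 3 among genes that overlap no other, in place of 5. The last alternative left out SPS100 and ZIP2 by construction. The filter of at least 10 counts in every sample likewise left out SPS100 and SPO19. With 8 counts added, the log2 differences of REC104 (0.98) and SPO19 (0.90) fell under the size limit. Causes of the other changes in number were not tested. When 1 sample was left out, upregulated members numbered 10 to 12 in Flo+ and 11 to 12 in Flo-, downregulated ones 0 to 0 and 1 to 1, members with a higher ratio in Flo- 2 to 4 and with a lower one 0 to 1, and members higher in -Rap+Man 4 to 6 and lower 16 to 18. SPS100 could not be tested in Flo+ where too few samples with counts remained. Among single members, the uncalled NDT80 ratio in Flo- changed sign without -Rap+Man replicate 1 (-0.06), without +Rap+Man replicate 1 (-0.19) and without +Rap+Man replicate 3 (-0.01), within a range of -0.19 to 0.33 over the samples left out. Of the values of single called members and of IME2 and NDT80 that were recomputed, 948 kept direction and call, 21 lost the call and 4 gained one. Precision is limited by 3 samples per group and, for SPS100 in -Rap, SPO19 in +Rap and SPS2 in the Flo- experiment, by fewer than 10 reads per library. MEK1 also fell below 10 reads in some libraries of the Flo- experiment, and SPO74 in +Rap+Man replicate 3.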
